A study of Homo sapiens with 6 samples.

Results

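The genes described here are 10 genes of mitochondrial clearance and autophagy, chosen with red cell maturation in mind. They are the mitophagy receptors BNIP3L, BNIP3 and FUNDC1, the kinase gene ULK1 and the ATG8 family genes MAP1LC3B, GABARAP, GABARAPL1 and GABARAPL2. The protease gene ATG4A and the transcription factor gene FOXO3 complete the list. All 10 were listed by name and make up 10 of the 62252 genes in the data and 10 of the 21045 genes tested. Messenger RNA was measured in K562, a human leukemia line with red cell features. There were 3 libraries of cells without doxycycline (−Dox) and 3 of cells with doxycycline (+Dox). Cells of both groups descend from a single clone with a docking site at the AAVS1 locus and carry a Flag-PCBP1 cassette behind a tet-inducible promoter, with a puromycin resistance gene. The groups differ in Dox and, through it, in Flag-PCBP1. No Dox-treated line without Flag-PCBP1 was analysed here, so the drug and the protein cannot be told apart, and the dose and time of Dox for these libraries are not given in the sources used here. The labels do not say whether the libraries come from separate cultures, so the p-values measure the spread between these libraries.

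Mitophagy is the removal of mitochondria by autophagy, in which a double membrane grows around a piece of the cell and delivers it to the lysosome. Receptors in the outer mitochondrial membrane bind proteins of the ATG8 family (the LC3 and GABARAP proteins), which are joined to the growing membrane after an ATG4 protease has trimmed their end. The ULK1 kinase starts the process, and FOXO3 switches on several of the genes. Reticulocytes need BNIP3L, also called NIX, to lose their mitochondria, and K562 cells are often used as a model of red cell precursors.

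Each library held between 70905656 and 84177316 estimated counts. PCBP1 mRNA, the check of the labels, was at 247.5, 269.5 and 266.9 CPM (gene counts divided by library size, normalized by TMM) in −Dox and 1030, 936.4 and 1037 CPM in +Dox. The difference was 1.94 on the log2 scale (adjusted p = 5.22e-10 by the quasi-likelihood test of edgeR, used for each gene here). Reads of the cassette count as PCBP1 too. All 8 red cell markers of K562 used here were above 1 CPM in the mean, led by the globin gene HBG2 with means of 3580 CPM (−Dox) and 3620 CPM (+Dox). Summed over the 8 markers, −Dox libraries held 8023, 9307 and 8238 CPM and +Dox libraries 8743, 7831 and 8226 CPM, and the groups overlapped. Within that list KLF1 (log2 fold change 0.46) and TAL1 (0.44) were higher in +Dox at an adjusted p under 0.05. The others did not pass, namely GATA1 (0.12) and the globin genes HBA2 (−0.22), HBE1 (−0.13), HBG1 (−0.12), HBG2 (0.016) and HBA1 (0.0013). The part of these values in the results below was not tested. Of 16 markers of other blood and tissue cells, MS4A1 (B cells) and PF4 (megakaryocytes) were at 0 in each library. The lymphoid list of 4 genes was led by CD3D, with means of 20.9 CPM (−Dox) and 19.2 CPM (+Dox), and the list of 4 megakaryocyte genes by ITGA2B, at 9.20 and 10.7 CPM. LYZ led the 4 monocyte and neutrophil genes, with means of 144 CPM (−Dox) and 104 CPM (+Dox; edgeR log2 fold change −0.47, adjusted p = 0.00837), while KRT8 led the 4 fibroblast and epithelial genes, at 334 and 293 CPM.

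Of the 10 genes, 3 were called higher with Dox at an adjusted p under 0.05, namely BNIP3L, ATG4A and FOXO3, and none was called lower. The call of FOXO3 was lost when the counts of its copy FOXO3B were added. The share of all tested genes called was 15.8%, with 8.16% called higher and 7.68% called lower. Each of the 10 genes had a mean of at least 10 CPM, and among the 9289 genes at that level 26.6% were called and 12.8% were called higher. At an unadjusted p under 0.05, 7 of the 10 genes passed, against 28.6% of all tested genes and 42.8% of those with at least 10 CPM. No gene of the 10 passed the limits for a DEG, an adjusted p under 0.05 with an absolute log2 fold change above 1, which 1.46% of tested genes did. The log2 fold change was positive for 8 of the 10 genes, against 51.1% of all tested genes, and its median was 0.17, against 0.0061 over all tested genes. In 6 of the 10 genes the groups did not overlap, each with all +Dox libraries on top. Groups were apart in either direction in 33.2% of tested genes and 45.2% of those with at least 10 CPM, and apart with +Dox on top in 17.4% and 21.5%. In bulk RNA a change of RNA per cell and a change in the share of cells that express a gene cannot be told apart.

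**Figure D1:**
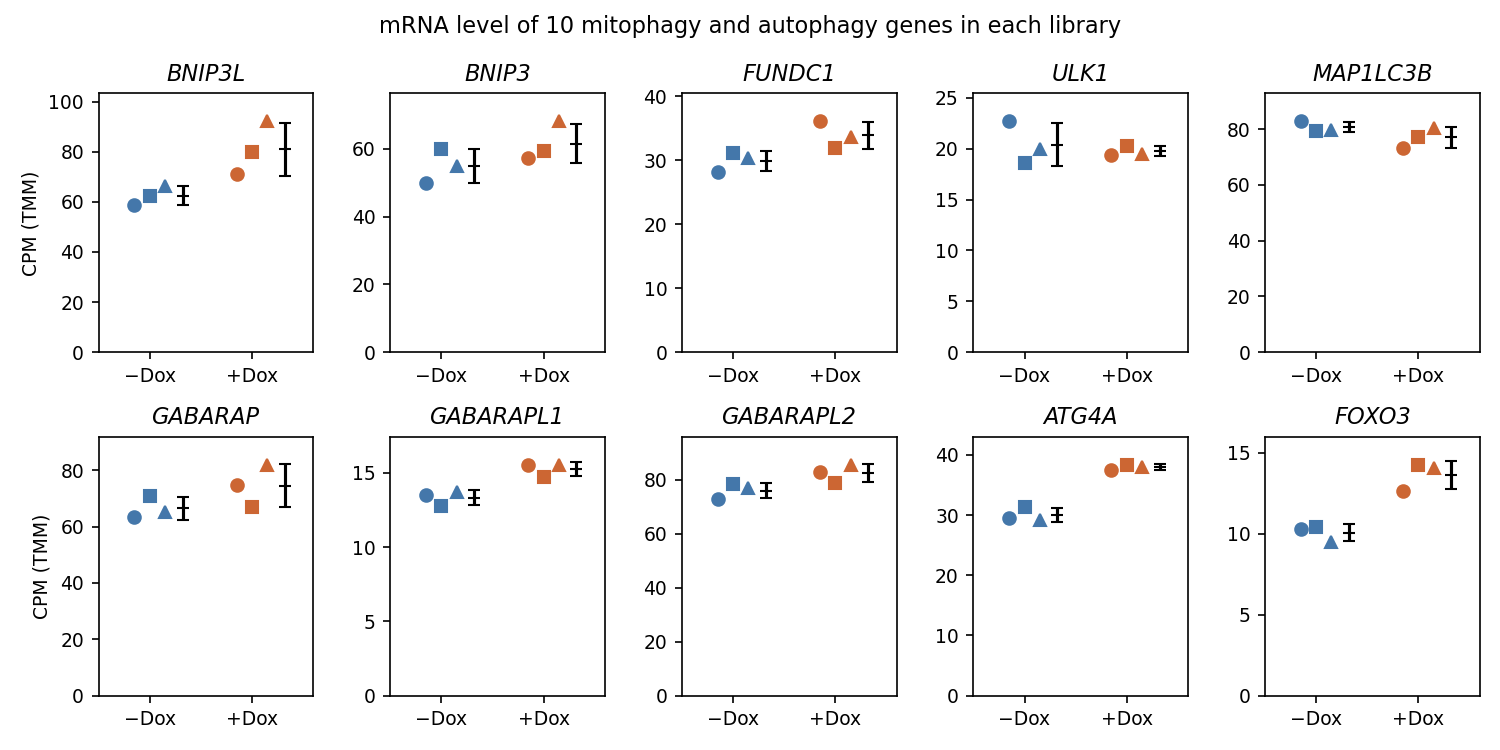
mRNA level of each of the 10 genes in CPM (gene counts divided by library size, normalized by TMM; vertical axes start at 0 and differ between panels) for the 3 −Dox libraries (blue) and the 3 +Dox libraries (orange), with circles, squares and triangles for replicates 1, 2 and 3 and black bars for the mean ± SD. The groups are apart for BNIP3L, ATG4A and FOXO3 and, by less, for FUNDC1, GABARAPL1 and GABARAPL2, and they overlap for BNIP3, ULK1, MAP1LC3B and GABARAP.

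Among the receptors, BNIP3L rose. BNIP3L (ENSG00000104765.16) spans 26383054 to 26505636 of chromosome 8 (GRCh38, plus strand, the build of all positions here) and encodes the receptor that binds ATG8 proteins from the outer membrane of the mitochondrion. Its mRNA was at 58.8, 62.2 and 66.3 CPM in −Dox replicates 1, 2 and 3 and at 70.97, 79.9 and 92.2 CPM in +Dox replicates 1, 2 and 3. The lowest +Dox library was above the highest −Dox library, and the spread was wider in +Dox (81.0 ± 10.6 CPM) than in −Dox (62.5 ± 3.76 CPM, SD, n = 3 each). The log2 fold change was 0.38 (standard error 0.081, 95% interval 0.20 to 0.55, adjusted p = 0.00738), or 1.297-fold. Leaving out +Dox replicate 3, the highest library, gave 0.27, and leaving out +Dox replicate 1 gave 0.46, and both stayed under an adjusted p of 0.05. PNMA2, on the opposite strand, covers 7.95% of the exon bases of BNIP3L and had 1.65 CPM in the mean of −Dox and 1.22 CPM in that of +Dox.

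BNIP3 and FUNDC1 did not pass the test. BNIP3 (ENSG00000176171.12, chromosome 10, 131967684 to 131981967, minus strand) encodes the close relative of BNIP3L that low oxygen is known to induce. It was at 49.9, 60.1 and 55.0 CPM in −Dox and 57.2, 59.3 and 68.2 CPM in +Dox, and the groups overlapped (log2 fold change 0.16, 95% interval −0.0034 to 0.33, adjusted p = 0.184). When libraries were left out in turn, the value ran from 0.085 (without +Dox replicate 3) to 0.23 (without −Dox replicate 2). FUNDC1 (ENSG00000069509.6, chromosome X, 44523639 to 44542859, minus strand), another receptor of the outer membrane, was at 28.2, 31.1 and 30.3 CPM in −Dox and 36.1, 31.9 and 33.7 CPM in +Dox. Its groups did not overlap, with a gap between +Dox replicate 2 and −Dox replicate 2 that was small beside the spread of each group (log2 fold change 0.18, 95% interval 0.045 to 0.32, adjusted p = 0.0701).

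BNIP3 has 44 annotated pseudogene copies, 21 of them with counts, and 53.2% of the 31-base words of its main transcript also occur in copies. The copies took between 9.84% and 14.1% of the summed CPM of BNIP3 and its copies. BNIP3P41, the most abundant copy, averaged 5.39 ± 0.27 CPM (−Dox) and 4.29 ± 1.08 CPM (+Dox, SD, n = 3 each, log2 fold change −0.33, adjusted p = 0.191). How reads were split between BNIP3 and its copies is therefore uncertain.

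Of the genes that start and carry the membrane, ULK1 did not pass the test in either direction. ULK1 (ENSG00000177169.10, chromosome 12, 131894622 to 131923150, plus strand) was at 22.7, 18.6 and 19.99 CPM in −Dox and 19.4, 20.3 and 19.5 CPM in +Dox (edgeR log2 fold change −0.049, 95% interval −0.21 to 0.12, adjusted p = 0.737). The +Dox libraries lay within the range of the −Dox libraries. The sign was positive with an offset for transcript length (0.038) and without −Dox replicate 1 (0.033), so that the sign for ULK1 changed with the setting.

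The 4 ATG8 family genes, whose products sit on the growing membrane and bind the receptors, did not pass the test. MAP1LC3B (ENSG00000140941.14, chromosome 16, 87383953 to 87404779, plus strand), which encodes the LC3 protein used as a marker of autophagosomes, was at 82.8, 79.4 and 79.8 CPM in −Dox and 73.2, 77.2 and 80.6 CPM in +Dox. Its groups overlapped, and the log2 fold change was −0.068 (95% interval −0.18 to 0.043, adjusted p = 0.433). When libraries were left out in turn, the value for MAP1LC3B ran from −0.101 (without +Dox replicate 3) to −0.032 (without +Dox replicate 1). GABARAP (ENSG00000170296.10, chromosome 17, 7240008 to 7242449, minus strand) was at 63.3, 70.96 and 65.1 CPM in −Dox and 74.9, 66.8 and 82.0 CPM in +Dox, where replicate 2 of +Dox fell inside the −Dox range. Its log2 fold change was 0.17 (95% interval 0.011 to 0.32, adjusted p = 0.145), with an adjusted p of 0.0386 without that library and 0.0434 with no low count filter. Over the 15 other settings the value for GABARAP ran from 0.093 to 0.24, with an adjusted p of up to 0.493.

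GABARAPL1 and GABARAPL2 were a little higher in each +Dox library than in any −Dox library. GABARAPL1 (ENSG00000139112.11, chromosome 12, 10212458 to 10223128, plus strand) was at 13.5, 12.7 and 13.7 CPM in −Dox and 15.5, 14.7 and 15.5 CPM in +Dox (edgeR log2 fold change 0.19, 95% interval 0.043 to 0.34, adjusted p = 0.0804). GABARAPL2 (ENSG00000034713.8, chromosome 16, 75566375 to 75577881, plus strand), also called GATE-16, was at 72.7, 78.3 and 76.9 CPM in −Dox and 82.8, 78.9 and 85.6 CPM in +Dox (edgeR log2 fold change 0.12, 95% interval 0.0060 to 0.23, adjusted p = 0.152). These differences did not pass the adjusted test. Copies of GABARAPL1, such as GABARAPL3, had no counts. Copies of MAP1LC3B took at most 0.567% of the summed CPM of that gene and its copies, although 21.7% of the 31-base words of its main transcript occur in them, and MAP1LC3B2 was under 1 CPM in each library. ENSG00000262526, on the same strand, covers 35.4% of the exon bases of GABARAP and averaged 0.28 CPM (−Dox) and 0.43 CPM (+Dox).

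ATG4A had the smallest adjusted p of the 10 genes. ATG4A (ENSG00000101844.18, chromosome X, 108091668 to 108154671, plus strand) encodes a cysteine protease that trims ATG8 proteins, with a known preference for the GABARAP branch. It was at 29.6, 31.3 and 29.2 CPM in −Dox and at 37.5, 38.4 and 38.1 CPM in +Dox. The 3 +Dox libraries lay within 1 CPM of each other and above each −Dox library, at 38.0 ± 0.42 CPM against 30.0 ± 1.15 CPM (SD, n = 3 each). The log2 fold change was 0.34 (standard error 0.054, 95% interval 0.22 to 0.46, adjusted p = 0.00103), or 1.27-fold. Over 15 other settings it stayed between 0.31 and 0.37 and under an adjusted p of 0.05. ATG4B, ATG4C and ATG4D, the other proteases of this family, were not called in either direction (median log2 fold change 0.037).

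FOXO3 had the lowest level of the 10 genes in CPM. FOXO3 (ENSG00000118689.15, chromosome 6, 108559835 to 108684774, plus strand) encodes a transcription factor that in red cell precursors is known to switch on antioxidant and autophagy genes. It was at 10.3, 10.4 and 9.45 CPM in −Dox and 12.7, 14.2 and 14.02 CPM in +Dox, with no overlap (10.1 ± 0.53 against 13.6 ± 0.86 CPM, SD, n = 3 each). The log2 fold change was 0.44 (standard error 0.080, 95% interval 0.27 to 0.61, adjusted p = 0.00257), or 1.36-fold. With an offset for transcript length the value was 0.38 and the adjusted p 0.0516.

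**Figure D2:**
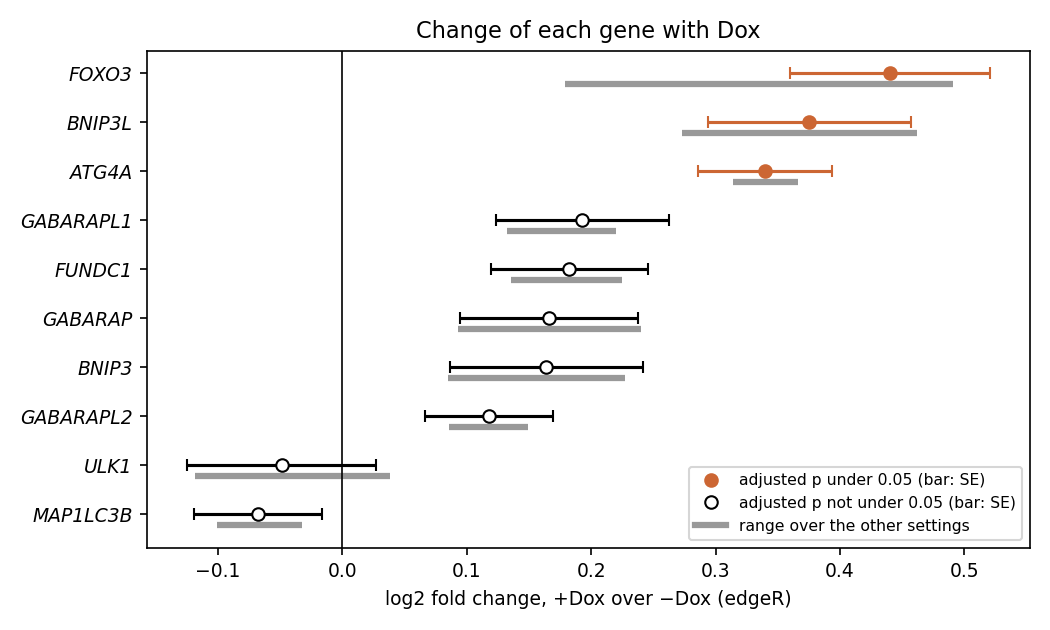
Log2 fold change of each of the 10 genes, +Dox over −Dox, by edgeR (points, with the standard error as bars, filled where the adjusted p was under 0.05), and the range of the same value over 15 other settings (grey). BNIP3L and ATG4A stayed positive and called throughout, the range of FOXO3 reached down to 0.18, and that of ULK1 crossed 0.

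FOXO3 shares sequence with FOXO3B, its copy on chromosome 17, and was not called once the counts of both were summed. Of the 31-base words of the main FOXO3 transcript, 47.1% also occur in FOXO3B. FOXO3B was at 5.77, 5.84 and 5.13 CPM in −Dox and 3.82, 4.28 and 4.05 CPM in +Dox, each +Dox library below each −Dox library (log2 fold change −0.46, standard error 0.11, adjusted p = 0.0155), a call lost without −Dox replicate 2 (adjusted p = 0.0614), without +Dox replicate 1 (0.0646) and with an offset for transcript length (0.836). FOXO3B took 35.2% to 35.9% of the summed CPM of both genes in −Dox and 22.4% to 23.2% in +Dox. The sum was 16.1, 16.3 and 14.6 CPM in −Dox and 16.5, 18.5 and 18.1 CPM in +Dox. The summed values still did not overlap, but the difference was smaller, with a log2 fold change of 0.18 (standard error 0.074) and an adjusted p of 0.126. Opposite changes of both genes and a different split of shared reads cannot be told apart in these files.

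The stretches shown here illustrate how near the copies are. Each holds 29 bases of exon on GRCh38, from chr6:108663618-108663646 on the plus strand for FOXO3 and from chr17:18672114-18672142 on the minus strand for FOXO3B, and the capital marks the single base that differs, G15A (FOXO3 base first, positions counted from 1 at the 5′ end).
FOXO3: agagccgtggccgcGcagccaagaagaag
FOXO3B: agagccgtggccgcAcagccaagaagaag

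**Figure D3:**
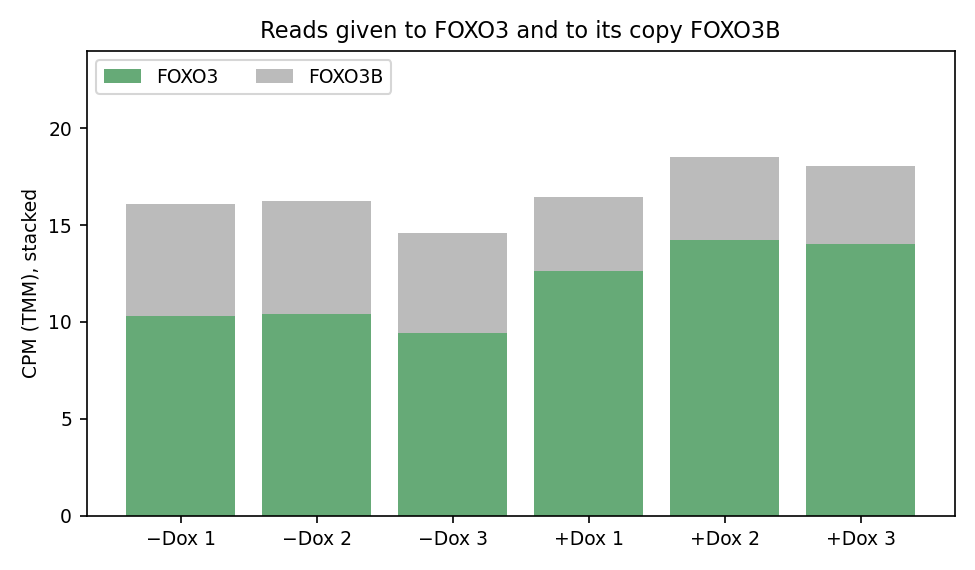
Level in CPM (gene counts divided by library size, normalized by TMM) assigned to FOXO3 (green) and, stacked on it, to FOXO3B (grey) in each of the 6 libraries. FOXO3 is higher and FOXO3B lower in each +Dox library, and the whole bars run from 14.6 to 16.3 in −Dox and from 16.5 to 18.5 in +Dox.

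The promoters of 2 of the genes called higher were matched in RefSeq (GRCh38.p14) and are given as examples. RefSeq windows, of 250 bases before to 50 after a start, were matched for 9 of the 10 genes. Capitals mark matches on either strand to ACGTG, the core of the hypoxia response element, or to TGTTTA, the core of the FOXO motif. The ATG4A window is chrX:108091528-108091827 on the plus strand. The FOXO3 window is chr6:108560667-108560966 on the plus strand, at the start of the transcript FOXO3-202, which held less of the FOXO3 TPM than FOXO3-201 in each library. It was chosen after the matches were seen, and the window at chr6:108559575-108559874, near the start of FOXO3-201, has no match to either.
ATG4A: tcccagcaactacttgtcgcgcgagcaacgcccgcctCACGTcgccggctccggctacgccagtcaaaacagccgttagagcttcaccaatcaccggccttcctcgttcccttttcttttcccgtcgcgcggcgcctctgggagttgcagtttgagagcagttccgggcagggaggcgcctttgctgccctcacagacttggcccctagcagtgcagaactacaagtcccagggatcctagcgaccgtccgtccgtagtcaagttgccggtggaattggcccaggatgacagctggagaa
FOXO3: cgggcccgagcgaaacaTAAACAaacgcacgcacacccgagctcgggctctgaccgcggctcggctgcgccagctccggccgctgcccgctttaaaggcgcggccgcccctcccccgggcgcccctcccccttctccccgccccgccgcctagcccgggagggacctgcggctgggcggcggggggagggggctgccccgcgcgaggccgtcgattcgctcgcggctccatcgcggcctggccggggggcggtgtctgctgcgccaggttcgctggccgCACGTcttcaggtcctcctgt
The 9 genes have 12 windows, 4 of them of FOXO3, and 2 of those overlap and share a match. ACGTG occurred in 5 of the 12 windows (ATG4A, BNIP3, FOXO3 and GABARAPL2), and in 21.4% of 35116 windows of all genes. CACGTG, an E-box that contains ACGTG on both strands, occurred in 1 of the 12 windows (BNIP3) and in 7.26% of all windows. TGTTTA occurred in 2 of the 12 windows (FOXO3 and GABARAPL1) and in 12.3% of all windows. The letters AGATAA, a motif of erythroid factors such as GATA1, occurred in no window of the 9 genes and in 10.3% of all windows. These matches are letters in the windows, and no binding was measured here.

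By TPM, which is scaled for transcript length and so allows levels of different genes to be compared, the order in −Dox ran from GABARAP, at 109 ± 3.98 TPM, and GABARAPL2, at 99.8 ± 2.19 TPM, to FOXO3, at 1.35 ± 0.15 TPM (SD, n = 3 each). BNIP3 (42.3 ± 3.06), MAP1LC3B (40.0 ± 2.09), FUNDC1 (36.4 ± 1.20) and BNIP3L (23.4 ± 1.94) were in the middle, followed by ATG4A (15.5 ± 1.29), GABARAPL1 (7.59 ± 0.24) and ULK1 (5.71 ± 0.78). BNIP3 and MAP1LC3B, neighbours in that order, overlapped in range, and no other neighbours did. In +Dox the order was kept but for FUNDC1 (40.4 ± 1.56 TPM), which stood above MAP1LC3B (37.3 ± 2.08 TPM), and the ranges of GABARAP and GABARAPL2 and those of BNIP3 and FUNDC1 overlapped. GABARAP mRNA was thus above 95.3% of tested genes by mean TPM, BNIP3L above 82.4%, and FOXO3 above 40.7%. BNIP3L was below BNIP3 in each group, at 30.2 ± 3.04 against 46.1 ± 4.18 TPM in +Dox (SD, n = 3 each). The place of GABARAP depends on how its reads were split among transcripts. Its short transcript GABARAP-206, of 762 bases, held 54.1% of its TPM in the mean of −Dox. By CPM, which is not scaled for length, GABARAP (66.5) was below MAP1LC3B (80.7) and GABARAPL2 (76.0) in the mean of −Dox.

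The 10 genes have 67 annotated transcripts, of which 16 held at least 10% of the TPM of their gene in the mean. BNIP3L-201, of 3452 bases, held 77.3%, 75.8% and 72.1% in −Dox and 68.1%, 72.9% and 73.2% in +Dox. BNIP3L-202, which starts at a later first exon, held 23.0% ± 0.45 in −Dox and 24.4% ± 1.37 in +Dox, so both forms of BNIP3L were present in similar proportion in each group. Groups did not overlap for 2 of the 16 transcripts. They were apart for 15.3% of 20121 transcripts with such a share in genes with several transcripts and at least 10 CPM. GABARAP-201 held 15.6%, 16.5% and 18.2% in −Dox and 19.6%, 24.03% and 21.2% in +Dox. ULK1-204, a retained-intron transcript, held 21.2%, 30.7% and 21.7% in −Dox and 20.2%, 20.2% and 18.1% in +Dox. In both cases the exact permutation test, two-sided, gave p = 0.1, the smallest that 3 against 3 libraries allow, and an adjusted p of 0.711 over the 16 transcripts. ULK1 stood apart in makeup, as 47.3% to 51.6% of its TPM in −Dox and 40.8% to 63.4% in +Dox was on non-coding transcripts, against at most 10.3% in any library for the other 9 genes. On coding transcripts alone, ULK1 had a log2 fold change of −0.047.

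**Figure D4:**
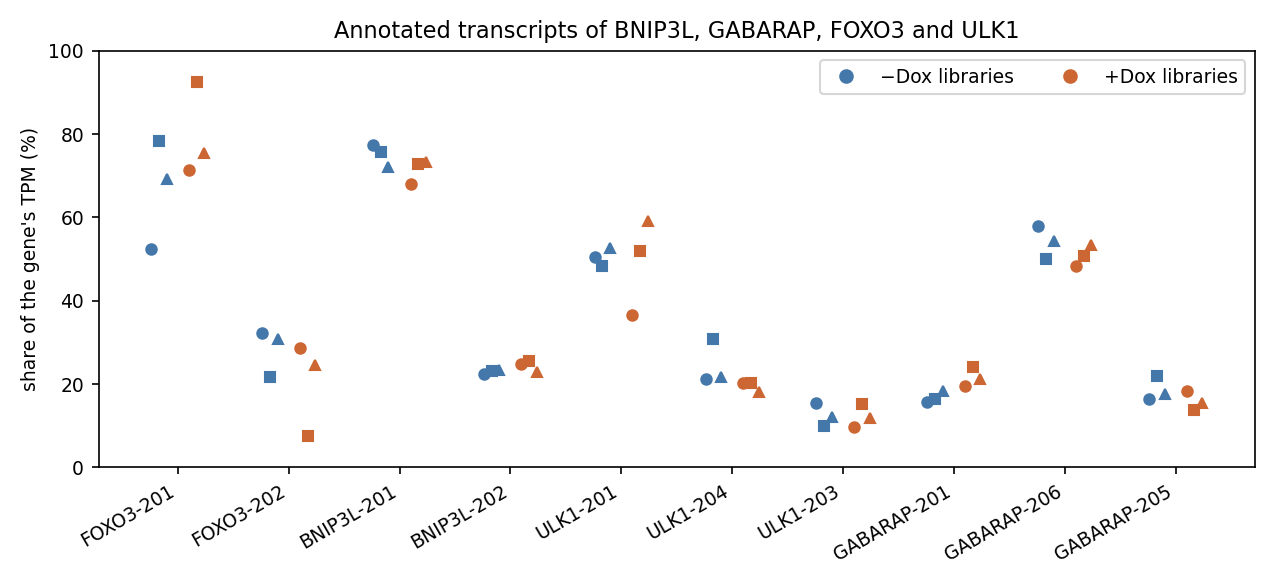
Share of the TPM of the gene held by each transcript with a mean share of at least 10%, for BNIP3L, GABARAP, FOXO3 and ULK1, in the 3 −Dox libraries (blue) and the 3 +Dox libraries (orange), with circles, squares and triangles for replicates 1, 2 and 3. The groups are apart for GABARAP-201 and ULK1-204 and overlap for the other 8 transcripts, with FOXO3-201 ranging from 52.3% to 92.4%.

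Around the 10 genes, 12 lists of other genes of the pathway held 79 genes, 78 of them tested. Of these, 20 rose, 4 fell and 54 were not called, so 30.8% were called, against 15.8% of all tested genes. Of the 64 with a mean of at least 10 CPM, 18 rose and 4 fell, so 34.4% were called, against 26.6% of all such genes. The median log2 fold change of the 78 tested list genes was 0.039. Without −Dox replicate 2 the number higher was 13, and without +Dox replicate 3 it was 12. Other mitophagy receptors and PINK1-Parkin genes had 5 of 10 called higher, none lower, and a median of 0.21. FUNDC2, a relative of FUNDC1, was at 64.1, 72.5 and 68.6 CPM in −Dox and 87.0, 81.9 and 88.6 CPM in +Dox (edgeR log2 fold change 0.33, adjusted p = 0.00185). Its adjusted p was 0.109 when the transcripts that code for protein were counted alone. NIPSNAP1, which marks damaged mitochondria, was at 33.4, 34.8 and 36.2 CPM in −Dox and 43.0, 41.9 and 44.05 CPM in +Dox (edgeR log2 fold change 0.31, adjusted p = 0.00216). In both genes the groups were apart. The other 3 called genes, named after their values were seen, were PINK1, the kinase that senses damaged mitochondria (0.46), and the receptor genes FKBP8 (0.28) and BCL2L13 (0.16). PINK1 was called under each of the 15 other settings, and FKBP8 lost its call without +Dox replicate 1 (adjusted p = 0.0583) or 3 (0.0618). BCL2L13 lost its call under 10 of the 15, among them each left-out library but −Dox replicate 1 (adjusted p 0.0721 to 0.145) and the length offset (0.202). The antisense gene PINK1-AS covers 39.5% of the exon bases of PINK1, and the strand setting of the counting is not given in the sources used here, so that the value for PINK1 is uncertain.

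Among genes that build the membrane, 2 of 30 were called higher and 2 lower, so that 13.3% were called, against 15.8% of all tested genes. Of the 25 with a mean of at least 10 CPM, these 4, or 16.0%, were called, against 26.6% of all such genes. In the rest of the ULK1 complex, ATG13 was called higher (0.19) and ATG101 lower (−0.25) among 4 genes, and both calls were lost without any single library other than −Dox replicate 1, with adjusted p up to 0.0913 and 0.169, and with the length offset (0.665 and 0.0727). Of 7 genes of the PI3K complex, PIK3R4 was called lower (−0.22), a call lost without −Dox replicate 2 or 3 or +Dox replicate 1 or 3 (adjusted p up to 0.130), and none was higher. Of 6 genes of ATG8 conjugation, ATG10, the enzyme that joins ATG12 to ATG5, was called higher (0.40, adjusted p = 0.00141, and 0.0653 with the length offset), and its exons overlap those of RPS23, a ribosomal protein gene at 1278 CPM in −Dox, on the opposite strand over 6.87% of bases. ATG16L1, whose product places the conjugation machinery on the membrane, was at 23.6, 24.1 and 22.2 CPM in −Dox and 20.04, 21.4 and 19.5 CPM in +Dox. Each +Dox library was below each −Dox library, and the adjusted p was 0.0507 (log2 fold change −0.20). ATG16L1 was not called, but it was called lower under 5 of the 15 other settings, namely DESeq2 (adjusted p = 0.0291), RLE normalization (0.0424), no low count filter (0.0493), at least 10 counts in every sample (0.0373) and without +Dox replicate 2 (0.0487). No gene was called among the 3 other ATG8 genes, each under 1 CPM in the mean, the 3 other ATG4 proteases or the 7 lipid transfer and WIPI genes. Among them the edgeR log2 fold change was 0.56 for MAP1LC3C (adjusted p = 0.260) and −0.79 for MAP1LC3B2 (adjusted p = 0.297). It was 0.13 for WIPI2 (adjusted p = 0.126) and −0.13 for WDR45 (adjusted p = 0.143).

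Of 6 cargo receptors, 3 rose and none fell, beside the 26.6% of genes with at least 10 CPM that were called. OPTN, which links ubiquitin on mitochondria to ATG8 proteins, was at 11.8, 12.2 and 14.2 CPM in −Dox and 23.9, 18.4 and 22.3 CPM in +Dox, the largest called change in the 12 lists (log2 fold change 0.76, standard error 0.10, adjusted p = 3.20e-04). NCOA4, the receptor that carries ferritin to the lysosome, was at 373.3, 393.7 and 391.3 CPM in −Dox and 458.2, 475.0 and 528.1 CPM in +Dox (edgeR log2 fold change 0.34, adjusted p = 0.00137). In both genes each +Dox library was above each −Dox library. NBR1 (0.23), named after its value was seen, was the third, and its call was lost without −Dox replicate 2 (adjusted p = 0.0617) or +Dox replicate 3 (0.0549) and with the length offset (0.151). Of 8 genes of fusion and the lysosome, the SNARE gene SNAP29 (0.22), the cathepsin gene CTSB (0.31) and, named after its value was seen, CTSD (0.29) rose, and none fell. The adjusted p of SNAP29 was 0.192 with an offset for transcript length, and that of CTSD was 0.0717 with this offset and 0.0660 without +Dox replicate 3.

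Among the regulators, TFEB, the master factor of lysosome genes, was at 2.04, 2.57 and 2.94 CPM in −Dox and 3.83, 3.97 and 3.46 CPM in +Dox (edgeR log2 fold change 0.58, adjusted p = 0.0268), and FOXO4 rose by 0.27 on the log2 scale. The groups did not overlap for TFEB, but its call was lost without any single library other than −Dox replicate 3 (adjusted p up to 0.0856). That of FOXO4 was lost without −Dox replicate 2 (adjusted p = 0.0819) or +Dox replicate 2 (0.0549), and with the length offset (0.123). The adjusted p of TFEB was 0.0772 with that offset and 0.0828 on coding transcripts alone. FOXO1, TFE3 and MITF were not called. Of 12 FOXO targets, 4 rose and 2 fell, with a median of 0.24, beside 8.16% called higher and 7.68% called lower among all tested genes. The 6 called were among the 8 targets averaging 10 CPM or more. Of all genes at such levels 12.8% were called higher and 13.8% lower. CAT, the catalase gene, rose from 107.3 ± 2.29 to 139.5 ± 1.13 CPM (SD, n = 3 each, log2 fold change 0.38, adjusted p = 1.11e-04), and TXNIP, which binds thioredoxin, fell from 336.3 ± 39.2 to 261.9 ± 3.63 CPM (log2 fold change −0.36, adjusted p = 0.00322). SESN3 (0.37), CDKN1B (0.25) and CITED2 (0.23) also rose and SOD2 (−0.16) fell, all named after their values were seen. CDKN1B was called under each of the 15 other settings, and SESN3 lost its call with the length offset (adjusted p = 0.135). That of CITED2 was lost without −Dox replicate 2 or 3 or +Dox replicate 3 (adjusted p up to 0.0814) and with the length offset (0.0848). That of SOD2 was lost without −Dox replicate 1 or 2 or +Dox replicate 1 or 3 (adjusted p up to 0.110) and with the replicate number as a block (0.104). Of the upstream kinase genes STK11, which encodes the kinase LKB1, was called higher (0.20) among 7 tested, a call lost without −Dox replicate 1 or 2 or +Dox replicate 2 or 3 (adjusted p up to 0.108) and with the length offset (0.0585). RPTOR, a subunit of mTORC1, was not called (log2 fold change −0.17, adjusted p = 0.206).

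**Figure D5:**
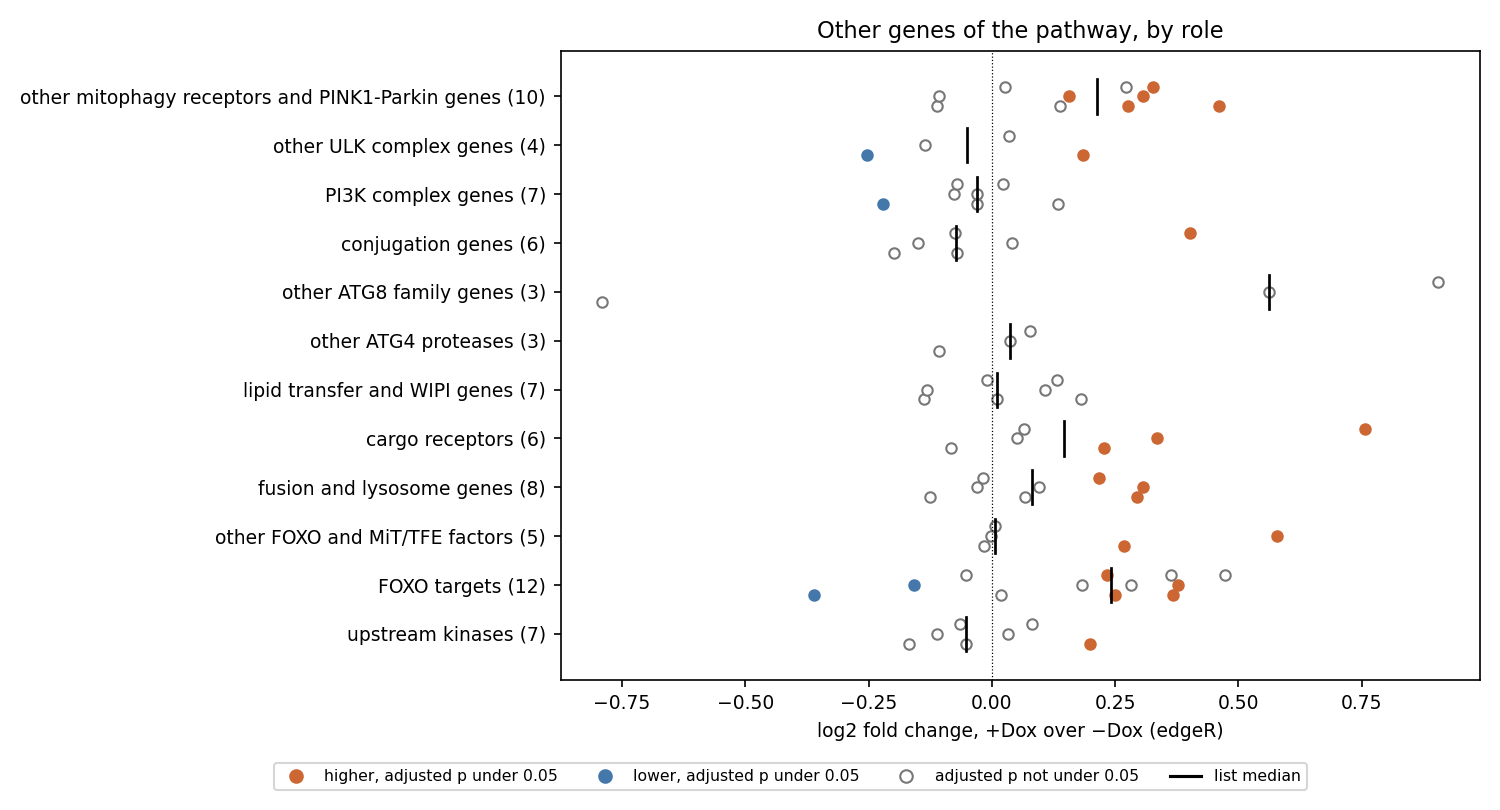
Log2 fold change by edgeR, +Dox over −Dox, of the 78 tested genes of 12 lists of the pathway (number tested in parentheses), filled where the adjusted p was under 0.05 (orange higher, blue lower), with the list median as a black line. Calls to the right of 0 stand in 8 of the 12 lists, and OPTN, at 0.76, is the farthest of them.

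Among the genes whose log2 CPM was most like that of BNIP3L over the 6 libraries, of 9289 genes, were GPATCH11 (Pearson r = 0.986) and SNAP23 (0.984), and for FOXO3 they were GALNT5 (0.999), IRAK4 (0.997) and NSF (0.996). These are descriptions, since the best of many genes over 6 libraries that share their groups are close to 1.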

How the data were processed

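Polyadenylated RNA of the 6 libraries was read in paired-end cycles of 150 bases. The authors quantified each library with Salmon 1.10.2 and deposited, per transcript, an estimated count (not scaled) and a TPM value (scaled by the authors' tool for effective length and depth), without pooling replicates. The deposited effective length of each transcript was used for the length offset. Index, strand and bias settings are not given in the sources used here.

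Transcripts were matched to GENCODE 44 on GRCh38 (433 of 252045 unmatched, at most 0.138% of counts), summed per gene and rounded. Totals were 84177316, 80104627 and 74766040 in −Dox replicates 1, 2 and 3 and 70905656, 82263502 and 82449808 in +Dox. Replicates differed by 8.27 to 17.5 chi-square per gene, so none was taken as a repeat of another. The test was that of edgeR 4.0.16 in R 4.3.3 on genes whose mean count exceeded 10 (TMM, quasi-likelihood, two-sided, Benjamini-Hochberg over all tested genes). The study used DESeq2, here an alternative (DESeq2 1.42.0). Standard errors were derived from the F statistic, and the 95% interval, which is not adjusted, uses the t distribution with edgeR's degrees of freedom. Transcript shares were compared by exact permutation tests.

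The members, lists, tests and alternatives were chosen with earlier results of these data known. Named were all members and PCBP1, list genes called with an absolute log2 fold change above 0.5, otherwise the 2 smallest p of a list, near-identical copies, and the 3 genes most like BNIP3L and FOXO3. A marker and a gene named by this rule are not reported here. The steps were tested on simulated counts with known changes. Of 96 genes changed 1.3-fold, edgeR called 31.25%, and of the 43 of these with a mean count of at least 1000 it called 62.8%. For 2-fold changes the shares were 55.8% of 104 genes and 100% of the 40 at that count. It also called 12 unchanged genes. Python 3.11.15 with pandas 2.3.3, scipy 1.17.1, numpy 2.4.6 and matplotlib 3.10.9 made the tables and figures.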

Additional observations from a re-analysis of the deposited data

How the results depend on the processing

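Of 150 values of the 10 genes under 15 other settings, 144 kept their direction and their side of the threshold. BNIP3L and ATG4A were called in each of the 15. ULK1, not called, turned positive with the transcript length offset (0.038) and without −Dox replicate 1, within a range of −0.12 to 0.033 when libraries were left out in turn. AMBRA1 turned negative with the length offset (−0.065). GABARAP was called without +Dox replicate 2 and with no low count filter. FOXO3 lost its call with the length offset and with its copy summed, an alternative added, like the count of coding transcripts alone, after the data were seen. The number of the 10 genes called higher was 2 to 4 over all settings, and 3 to 4 when libraries were left out in turn, and none was called lower. DESeq2, on the same counts, also called 3 higher and 0 lower, but the share of all genes that it called is not given here. By edgeR 7 genes had an unadjusted p under 0.05, against 28.6% of all tested genes and 42.8% of those with at least 10 CPM. The number of all genes called was 1882 with the length offset, against 3333, and 2267 to 3313 without a library in turn. The number of DEGs was 515 with no low count filter and 172 on coding transcripts, against 308, and 231 to 313 without a library. In the 12 lists, 12 to 18 genes were called higher and 1 to 4 lower without a library in turn, against 20 and 4. Of the 16 transcripts, 2 to 5 had groups apart without a library in turn. Groups with fewer libraries are apart more often by chance alone. The share over all transcripts without a library is not given here, so nothing is concluded from this range. The causes were not tested.

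The replicate numbers did not pair the libraries (correlations of deviations −0.060 to 0.0075). With the replicate block 2490 genes were called, 298 of them DEGs, 3 of the 10 genes were higher, and in the lists 17 genes were higher and 2 lower. In the lists the block ended the calls of ATG13, ATG101, BCL2L13, SOD2 and STK11. With 3 libraries a group and the spread between them, the 95% intervals of the 7 genes not called still allow log2 differences of up to 0.34.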
